A study of Mus musculus with 13 samples.

Results

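PADs, or pericentromere-associated domains, are stretches of chromosome that contact the satellite repeats of mouse chromocenters more often than the stretches next to them. The regions described here were PAD in thymus and non-PAD in embryonic stem cells (ESCs), neural precursor cells (NPCs) and astrocytes (ACs). They were found by taking every autosomal 4C fragment end that had this combination of calls, joining neighbouring ends and setting each border midway to the next end of another combination. This gave 418 regions with 22152 of the 374542 autosomal fragment ends (5.91%). The regions were chosen by the calls themselves, so their calls, number and size are a description and carry no test.

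The calls came from sat4C, a chromosome conformation capture assay in which the major satellite repeat is the viewpoint and ligated fragments are sequenced. Thymus was taken from 3 adult male C57BL/6 mice. ESCs were the IB10 line of 129/Ola background (3 replicates), the NPCs had been differentiated from those ESCs in culture (2 replicates), and the ACs in turn from the NPCs (2 replicates). The thymus samples were sequenced on both an Illumina GAII and a HiSeq, and the other cell types on a HiSeq alone. Strain, tissue or culture, sequencing platform and cell type thus differed together between thymus and the other samples and cannot be told apart. The file holds 1 consensus call per cell type at each fragment end, with no read counts and no call of a single replicate, so depth and replicate error are unknown for every region. It holds no expression values, so the identity of the thymus sample was not checked against marker genes.

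Chromocenters form where the pericentromeric heterochromatin of several chromosomes clusters in the nucleus. They are rich in major satellite repeats and in the marks of constitutive heterochromatin, and they are a much studied landmark of lymphoid nuclei because several silent lymphoid genes were seen next to them by microscopy. A thymus is made up largely of thymocytes, the precursors of T cells, with a small stroma of epithelial, dendritic and other cells.

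The borders rest on the restriction sites that delimit a fragment end, and 3 short ones are shown as examples. They are shorter than usual, as the median interval between neighbouring ends in the regions was 2.76 kb. Since the calls came from a model fitted over many ends, they do not give the scale at which contact changed. In the sequence of each, on the plus strand of mm9 (NCBIM37), the capitals mark the NlaIII site (CATG) at the start and the MfeI site (CAATTG) at the end, and the border was set midway between the starts of these sites. The left border of the region with the *Skint* genes, with thymus changing from non-PAD to PAD within chr4:111790501-111790623, the right border of the region with *Sox11*, with thymus changing from PAD to non-PAD within chr12:29083404-29083505, and the left border of the region with *Grid1*, with thymus changing from non-PAD to PAD inside that gene within chr14:35984539-35984674, read as follows.
Skint left border: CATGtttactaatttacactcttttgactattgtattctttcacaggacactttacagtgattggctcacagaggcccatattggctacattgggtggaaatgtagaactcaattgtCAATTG
Sox11 right border: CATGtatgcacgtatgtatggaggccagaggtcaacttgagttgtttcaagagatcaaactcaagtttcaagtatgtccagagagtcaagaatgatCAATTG
Grid1 left border: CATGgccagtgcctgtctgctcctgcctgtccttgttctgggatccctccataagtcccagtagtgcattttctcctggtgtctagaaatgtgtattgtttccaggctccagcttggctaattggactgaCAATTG
In all 3, the other cell types were non-PAD on both sides, so only the thymus call changed.

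The regions covered 138.6 Mb, which was 5.74% of the called autosomal sequence and 11.9% of the 1160 Mb that was PAD in thymus. Their median size was 186 kb, with the middle 50% between 77.9 and 429.5 kb, and the full range ran from 0.328 to 3568 kb. Large regions held much of the sequence, as the 24 regions over 1 Mb made up 30.5% of it. At the other end, 74 regions were under 50 kb and 8 rested on 1 fragment end. A region held a median of 33 fragment ends. The regions were spread over 260 of the 729 autosomal thymus PADs, of which 175 held 1 region and the richest held 8. Sequence called PAD in a sole cell type was 390.6 Mb for NPCs, 39.4 Mb for ESCs and 13.2 Mb for ACs.

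The density of fragment ends sets how finely a region was resolved. Over the 418 regions the median was 181 ends per Mb. In 5 regions it was under 30 per Mb, and these held 9.12 Mb and 95 protein-coding genes, in arrays of gene copies on Chromosomes 7, 12, 13 and 14 (mostly *Vmn1r* and *Gm* genes). Another large region, on Chromosome 5, had just above that, 31.1 ends per Mb. In these the calls bridge wide intervals without a usable end, up to 1381 kb on Chromosome 7. Leaving out the 5 regions changed the sequence from 138.6 to 129.5 Mb, the protein-coding genes from 620 to 525, the genes per Mb from 4.47 to 4.05 and the GC content from 40.0% to 39.8%. The values below include them unless stated.

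**Figure D1:**
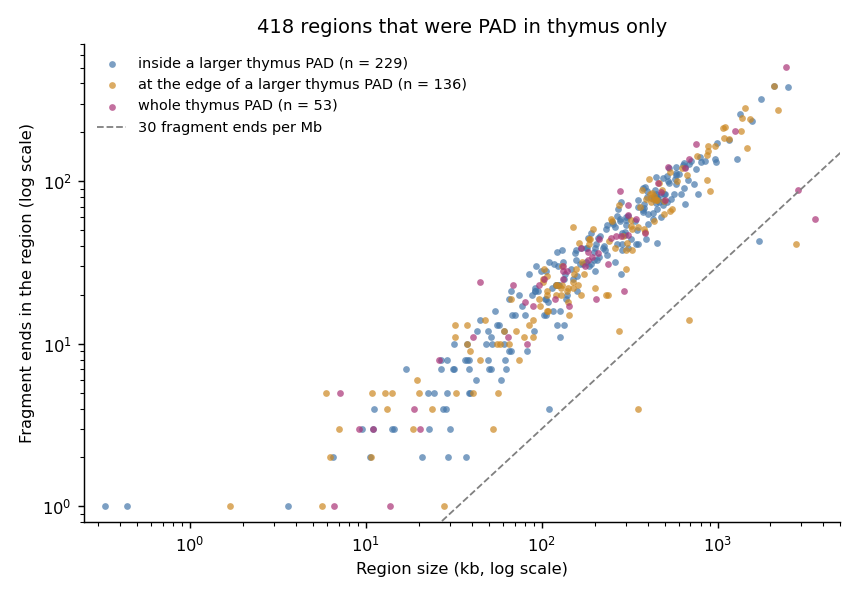
Size of each region (x axis, kb, log scale) against its number of fragment ends (y axis, log scale), with 1 point per region and colour for its place in the thymus PAD. Most points lie along a common band around 181 ends per Mb, and 5 regions lie under the dashed line of 30 ends per Mb.

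By their place in the thymus PAD, the regions fell into 3 kinds. In 229 regions (69.2 Mb, 49.9% of the sequence) the thymus PAD went on to both sides, so the region filled a stretch between PADs that thymus shared with another cell type. In 136 regions (48.8 Mb, 35.2%) the thymus PAD went on to 1 side, so the region extended a shared PAD. The other 53 (20.6 Mb, 14.9%) were whole thymus PADs with no shared part. Whole thymus-only PADs were 7.27% of the thymus PADs, and PADs found whole in a sole cell type were 10.7% of NPC, 3.13% of ESC and 1.14% of AC PADs. The kinds did not differ much in median size (191 kb between shared PADs, 180 kb at an edge and 184 kb for whole PADs).

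The border of a region is the point where a call changed, and the 836 sides show which. The thymus call changed to non-PAD at 241 sides (28.8%). The AC call changed to PAD at 234 sides (28.0%), the NPC call at 172 (20.6%) and the ESC call at 169 (20.2%). At the other 20 sides more than 1 call changed. At 53 regions AC became PAD on both sides, against 32 regions for NPC and 30 for ESC. Where another cell type became PAD at a side, it was thus most often ACs, and 189 regions (45.2%) touched an AC PAD, 153 (36.6%) an ESC PAD and 149 (35.6%) an NPC PAD. In all, 366 of the 418 regions touched a PAD of at least 1 of these cell types. Regions between shared PADs or at an edge do so by construction, and only 1 whole PAD did so as well.

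The kinds were defined by the calls of the neighbouring sequence. Differences between kinds close to a border thus follow from that definition, and the shares are given as a description. Within 25 kb of the regions that lay between shared PADs, 47.0% of the sequence was PAD in ACs, 32.9% in NPCs and 31.8% in ESCs. Around whole PADs the same shares were 0.936%, 0.202% and 1.62%. Farther out they rose, and at 800 to 1000 kb from a whole PAD 29.4% of the sequence was PAD in NPCs, 25.3% in ESCs and 17.9% in ACs, still under the autosomal coverage of 69.3%, 52.8% and 50.1%. The median distance from a whole PAD to the nearest PAD of another cell type was 351 kb, and for 19 of the 53 it was over 500 kb.

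**Figure D2:**
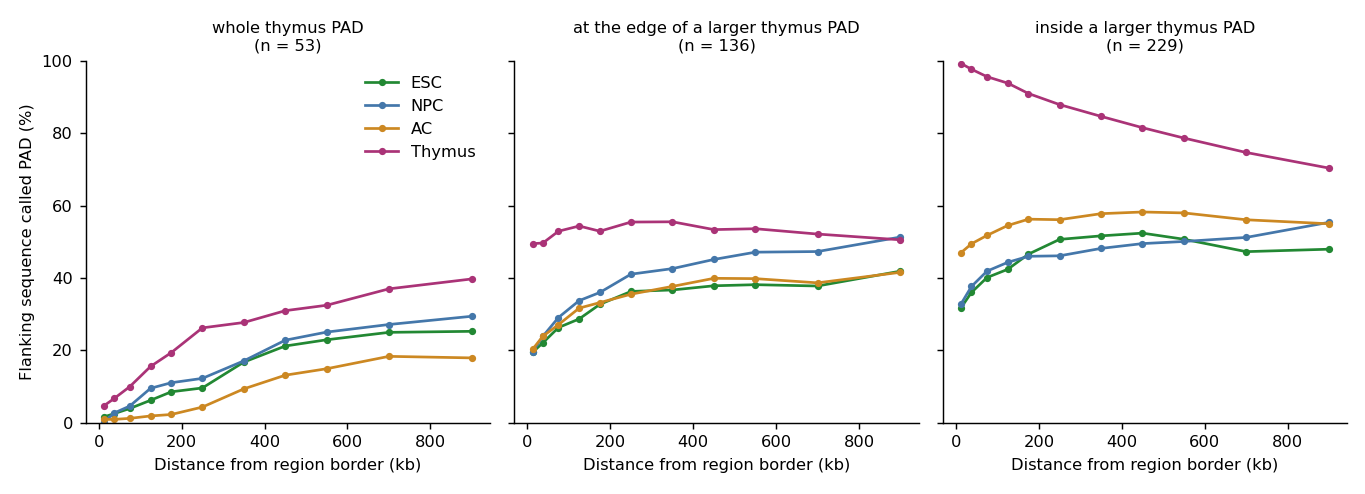
Share of flanking sequence called PAD (y axis, %) by distance from the border of a thymus-only region (x axis, kb), for 3 kinds of region and 4 cell types, with 1 point per distance bin. Flanks of whole PADs were under 5% PAD in every cell type within 25 kb, and flanks of regions between shared PADs were 47.0% PAD in ACs. The kinds were defined by neighbouring calls, so the contrast near the border follows from the definition.

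Seen from the other cell types, the regions lay in the sequence that ESCs, NPCs and ACs all left non-PAD. There were 801 such stretches on the autosomes, 470.7 Mb in all. Of this sequence 29.4% was PAD in thymus, against 48.1% of all autosomal sequence. A thymus-only region lay in 364 of the stretches, and in 229 it filled the stretch from end to end. The longest stretch, on Chromosome 12 (16370700 to 31567431), ran over 15.2 Mb and held 4 whole thymus PADs with 6.79 Mb, or 44.7% of its length. The largest of these was one of the sparse regions, with 59 fragment ends in 3568 kb. The next was well covered, with 504 ends in 2462 kb, and held *Sox11*, a transcription factor of neural precursors, together with *Rsad2* and *Cmpk2*, genes induced by interferon, and *Rnf144a*, a ubiquitin ligase. The nearest PAD of any other cell type was 2484 kb away, in ACs. The other 2 held *Myt1l*, a neuronal transcription factor (523 kb, 122 ends), and *Tmem18* (239 kb, 31 ends).

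The regions were unevenly spread over the autosomes. Their share of a chromosome had a median of 5.47% (SD 2.86, n = 19 autosomes), with 1.45% on Chromosome 11 and 12.4% on Chromosome 14 as the extremes. Chromosome 7 followed with 10.9% (7.92% without its 2 sparse regions), and Chromosome 12 stood at 8.94% (5.92% without its sparse region). The regions thinned out towards the end far from the centromere, which in mouse lies at the start of each chromosome. Each autosome was divided into 10 equal bins from the centromere. The regions covered 6.77% of the first bin, 8.26% of the second and 2.46% of the last, so coverage did not peak next to the centromere. Thymus PADs as such thinned out too, from 78.6% of the first bin to 19.4% of the last. As a share of thymus PAD, the regions varied between 7.91% and 14.8% with no steady trend along the chromosome.

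**Figure D3:**
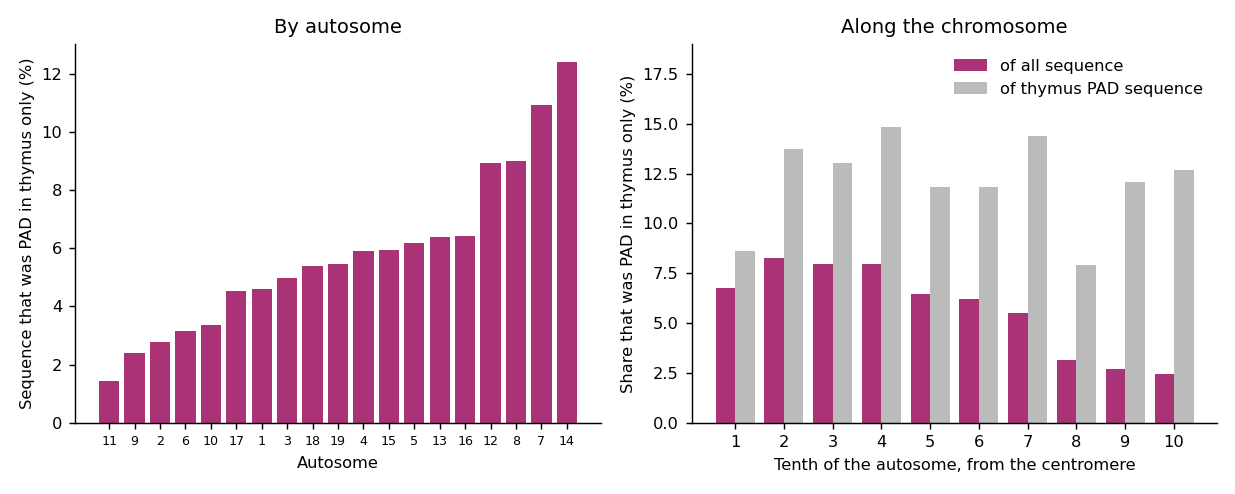
Left, share of each autosome that was PAD in thymus only (y axis, %), ordered by that share. Right, the same share in 10 equal bins from the centromere, of all sequence and of thymus PAD sequence (y axis, %). The share of all sequence was 6.77% in bin 1 and fell from 8.26% in bin 2 to 2.46% in bin 10. The share of thymus PAD stayed between 7.91% and 14.8%.

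Sequence features that the calls did not use placed the regions near other PADs, with a small shift towards the composition of non-PADs. Their GC content was 40.0%, against 39.0% in sequence that was PAD in all 4 cell types, 38.3% in sequence that was PAD in ACs and thymus only, and 44.6% in sequence that was non-PAD in all 4. Chromosome by chromosome, GC content was higher than in PADs of all 4 cell types on 17 of 19 autosomes (mean difference 1.01 percentage points, SD 1.16), higher than in PADs of ACs and thymus on 19 of 19 (1.57, SD 0.767), and lower than in shared non-PADs on 19 of 19 (-4.54, SD 1.84). Without the 5 sparse regions the first of these held on 16 of 19 autosomes. CpG dinucleotides numbered 6.54 per kb, against 6.16 in PADs of all 4 cell types and 10.9 in shared non-PADs. These are values side by side, since autosomes and regions are not replicates of a cell type.

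The regions had fewer genes per Mb than shared non-PADs, and lay within the range of other PADs. They held 4.47 protein-coding genes per Mb, against 4.87 in PADs of all 4 cell types, 3.11 in PADs of ACs and thymus only, 12.7 in shared non-PADs and 8.86 over the autosomes. Density was below that of shared non-PADs on 19 of 19 autosomes, but below that of PADs of all 4 cell types on 11 and above it on 8. It was above that of PADs of ACs and thymus only on 14 of 19 (mean difference 0.48 genes per Mb, SD 3.89) and below that of all other thymus PAD sequence on 13 of 19 (-0.89, SD 1.97). Among the kinds, regions between shared PADs held 3.09 genes per Mb (GC 39.1%), regions at an edge 6.33 (GC 40.6%) and whole PADs 4.71 (GC 41.6%). Without the sparse regions these were 2.99, 5.15 and 5.35 genes per Mb. Gene bodies covered 28.5% of the regions, against 26.2% of PADs of all 4 cell types and 49.4% of shared non-PADs.

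**Figure D4:**
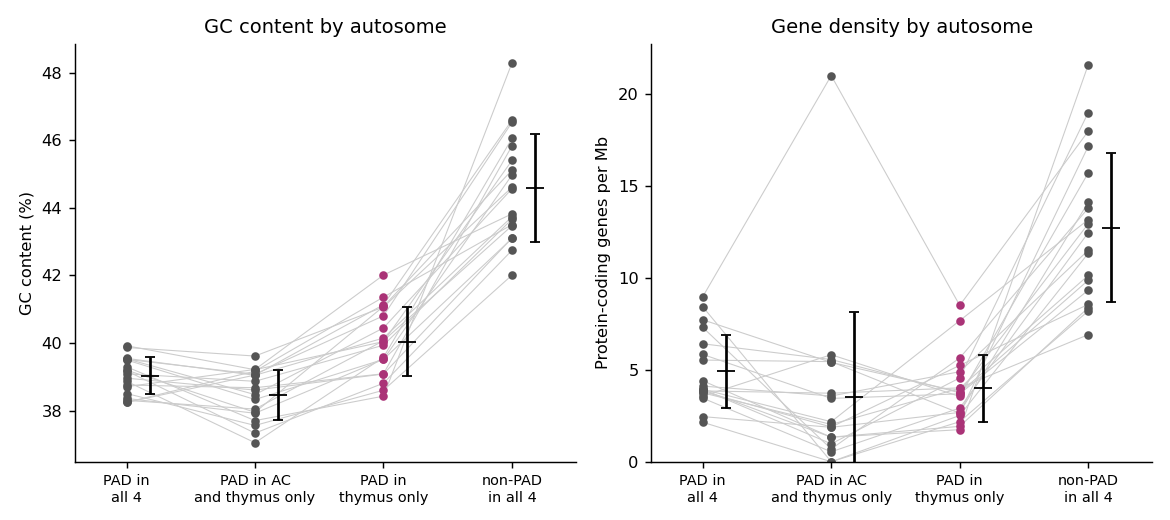
GC content (left, %) and protein-coding genes per Mb (right) of 4 classes of sequence, with 1 point per autosome, grey lines joining points of the same autosome, and bars for the mean and SD over 19 autosomes. The lower bar of PADs of ACs and thymus only runs below 0 and is clipped at the axis. Thymus-only regions averaged 40.0% GC and 3.99 genes per Mb.

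Of the 21397 autosomal protein-coding genes, 620 had their midpoint in a thymus-only region (2.9%), while 25.7% had it in any thymus PAD. More than 1 in 2 regions held no gene, as 233 held none and 93 held 1. At the other end, 11 regions held 10 or more genes each and 228 together. Of the 620 genes, 540 lay wholly inside their region. The genes had a median length of 11.6 kb, against 15.4 kb over the autosomes. The median was similar in all other thymus PAD sequence (11.8 kb) and in PADs of all 4 cell types (10.3 kb). In PADs of ACs and thymus only it was 2.43 kb. Of the 620 genes, 52 (8.39%) were over 200 kb. The share was 9.55% in PADs of ACs and thymus only, 6.75% in all other thymus PAD sequence, 6.44% in PADs of all 4 cell types and 3.22% in shared non-PADs.

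Long genes were often split by a border. Of the 568 genes of up to 200 kb, 539 also had their transcription start site in a thymus-only region, but only 25 of the 52 longer ones did. Among the 12 longest genes, 3 started in thymus-only sequence, 7 in thymus non-PAD sequence and 2 in another kind of thymus PAD. *Ptprd*, a receptor tyrosine phosphatase of synapses and the longest at 2073 kb, had 30.8% of its length in a region. *Csmd1* (1643 kb), whose product regulates complement, had 52.9% in its region and its start in a PAD of all 4 cell types. *Fhit*, which spans a fragile site, filled most of a 2089 kb region on its own, with 95.6% of its 1612 kb and its start site inside. *Ptprg*, a related phosphatase of 689 kb, lay wholly inside its region. *Grid1*, a delta glutamate receptor, started in non-PAD sequence and entered a whole thymus PAD of 754 kb at the border printed above, with 54.0% of the gene inside. *Trpm3*, a cation channel, had 40.5% of its length in a whole thymus PAD of 344 kb. *Ctnna3*, *Sntg1*, *Nell1*, *Npas3*, *Cacna2d3* and *Exoc4* made up the rest of the 12, with 24.5% to 70.1% inside.

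The lists of T cell genes held 1 member between them. None of 31 placed genes of CD3, coreceptors and T cell receptor signalling and none of 15 genes of V(D)J recombination lay in a thymus-only region, though 8 of each list lay in some thymus PAD. Of 36 thymocyte regulators only *S1pr1* did, the receptor through which mature thymocytes sense the lipid that draws them out of the thymus. It lay in a 463 kb region on Chromosome 3 (115178023 to 115641380, 98 fragment ends) at the edge of a 1021 kb thymus PAD. At 1 of 36 (2.78%) the list stood near the 2.9% of all protein-coding genes, and lists as short as these give no finer reading. Of 27 placed genes of thymic stroma 1 was a member, *Fezf2*, a transcription factor of medullary epithelial cells and of cortical neurons.

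Genes of other blood cells and of immune signalling were scattered over the regions. Their counts were too small to be read against the 2.9% of all protein-coding genes. *Pou2af1*, a coactivator of B cells, was the only member of 15 B cell genes (6.67%). *Siglech*, a marker of plasmacytoid dendritic cells, and *Cd209a*, a lectin of dendritic cells, were the 2 members of 20 myeloid and dendritic genes (10.0%). Of 80 interleukin and interleukin receptor genes 5 were members (6.25%), of which a pair shared a region. *Il17a* and *Il17f*, the cytokines of T helper 17 cells, lay together in a 342 kb region on Chromosome 1 (20579517 to 20921072, 41 fragment ends) with *Mcm3*, a subunit of the replicative helicase, and *Paqr8*. In NPCs the non-PAD that held it measured 343 kb, close to the region itself, and in ESCs 1869 kb. The others were *Il1rl1*, the receptor of interleukin 33, *Il5ra*, a receptor of eosinophils, and *Il15*, a growth factor of natural killer and memory T cells. *Slamf1* and *Cd48*, neighbouring receptors of lymphocytes, shared a 166 kb region at the edge of a 323 kb thymus PAD, *Cd47*, the "don't eat me" signal, filled much of a whole PAD of 103 kb, and *Btla* and *Cd200*, both inhibitory in immune cells, shared an 853 kb region with 11 other genes. No gene of the erythroid list was a member.

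The short lists of the other cell types gave 1 member or none each, too few to be read against the 2.9% of all protein-coding genes. *Zfp42*, a marker of pluripotency, was 1 of 24, *Sox11* was 1 of 24 neural precursor genes, *Slc17a6*, a vesicular glutamate transporter, was 1 of 21 neuronal genes, and none of 25 astrocyte genes was a member. The list with the largest share among the cell type lists was long genes, mostly of neural adhesion and synapses. It had 15 of 116 (12.9%), against 2.9% of all protein-coding genes. The 2.9% covers genes of all lengths, and of the 898 autosomal genes over 200 kb 52 were members. A trait of neural genes cannot be told apart from gene length here. The listed genes were frequent in thymus PADs as such, with 89 of the 116 in one and 44 in a PAD of all 4 cell types. Of the 15, 7 had their start site in thymus-only sequence. Besides *Ptprd*, *Csmd1*, *Ctnna3*, *Fhit*, *Ptprg*, *Grid1* and *Trpm3* they were the cadherins *Cdh7* and *Cdh20*, the protocadherin *Pcdh17*, *Lrrtm3*, *Rbfox1*, *Cntnap5c*, *Sorcs1* and *Sorcs3*. *Lrrtm3* lies inside *Ctnna3* and shared its region.

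Several gene families entered the regions as clusters. A share above or below the 2.9% of all protein-coding genes thus rests on 1 or a few regions. Of 206 vomeronasal type 1 receptor genes 37 were members, all in 1 region at the edge of a thymus PAD on Chromosome 7 (21593742 to 24376838, 2783 kb). That region held 65 genes, the most of any, but only 41 fragment ends, so the calls of these receptors rest on few ends. Of 19 *Mrgpr* genes, receptors of itch-sensing neurons and mast cells, 12 were members (63.2%), all in 1 region of 1290 kb with 137 ends (Chromosome 7, 54464668 to 55754898). This stretch was the whole ESC non-PAD between flanking ESC PADs, and thymus joined those flanks into a PAD of 1946 kb. Of 53 defensin genes 8 were members (15.1%), all beta-defensins (*Defb3* to *Defb8*, *Defb14* and *Defb46*) in a 455 kb region on Chromosome 8 with 68 ends. Of 1081 olfactory receptor genes only 12 (1.11%) were members, in 4 regions, while 798 lay in some thymus PAD. Of 355 immunoglobulin variable segments 28 were members (7.89%), and all lay in a single region of 553 kb in the heavy chain locus (Chromosome 12, 115032995 to 115586116, 68 ends) that adjoined sequence that was PAD in ACs and thymus. No diversity, joining or constant segment was a member. These segments are not counted among the protein-coding genes, and the regions held 5.74% of the called autosomal sequence. Keratin, *Hox* and Toll-like receptor genes had no member.

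The largest well covered regions each held a few genes. A region of 2507 kb on Chromosome 7 (57600857 to 60107367, 381 ends) held *Slc17a6*, *Gas2*, *Ano5*, *Svip*, *Fancf* and the midpoint of *Nell1*, and joined shared PADs within a thymus PAD of 5957 kb, of which thymus-only sequence made up 84.2%. On Chromosome 4 a region of 2207 kb (111790559 to 113997351, 276 ends) held 8 *Skint* genes, among them *Skint5* and *Skint6*. This family is known for *Skint1*, which shapes epidermal gamma delta T cells in the thymus, and *Skint1* itself was not a member. The region was flanked by PADs of NPCs and ACs, which left a non-PAD of 2381 and 2321 kb over the cluster. On Chromosome 13 a region of 2094 kb (116216802 to 118310870, 386 ends) held *Isl1*, a transcription factor of motor neurons and heart, with *Parp8* and *Emb*. On Chromosome 4 a region of 1755 kb held *Elavl2* and *Izumo3*, on Chromosome 5 a region of 1526 kb held *Reln*, *Lhfpl3*, *Srpk2*, *Mll5* and *Orc5*, and on Chromosome 18 a region of 1564 kb held 10 genes, among them *Gata6*, a regulator of endoderm and heart, *Rock1* and *Mib1*. The sparse regions among the 12 largest held mostly *Vmn1r* and *Gm* genes, and the 2860 kb region on Chromosome 5 held mostly *Gm* genes, where *Sept11*, *Ccni*, *Ccng2* and the B cell chemokine *Cxcl13* stood among 38 genes.

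Other gene-rich regions held clusters of a gene family, longer genes or both. A region of 908 kb on Chromosome 4 held 23 genes with *Pramef12*, *Pramel4* and *Pramel5*, genes of a family expressed in the germ line. A region of 381 kb on Chromosome 14 held 16, with *Tep1*, *Ttc5*, *Osgep*, *Parp2* and 6 olfactory receptor genes. A region of 876 kb on Chromosome 7 held 16, with *Mill1*, *Mill2* and a cluster of *Psg* genes, glycoproteins of the placenta. A region of 1166 kb on Chromosome 8 held 13, with *Mtus1*, *Zdhhc2*, *Fgf20* and the sperm proteases *Adam24*, *Adam25* and *Adam39*. The region of 1363 kb on Chromosome 7 (68899185 to 70262361, 203 ends) that held *Ndn*, *Magel2*, *Mkrn3* and *Peg12*, imprinted genes of the Prader-Willi locus, was chosen for mention after its values were seen. It formed the distal end of a thymus PAD of 6668 kb, and past it all 4 cell types were non-PAD.

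**Figure D5:**
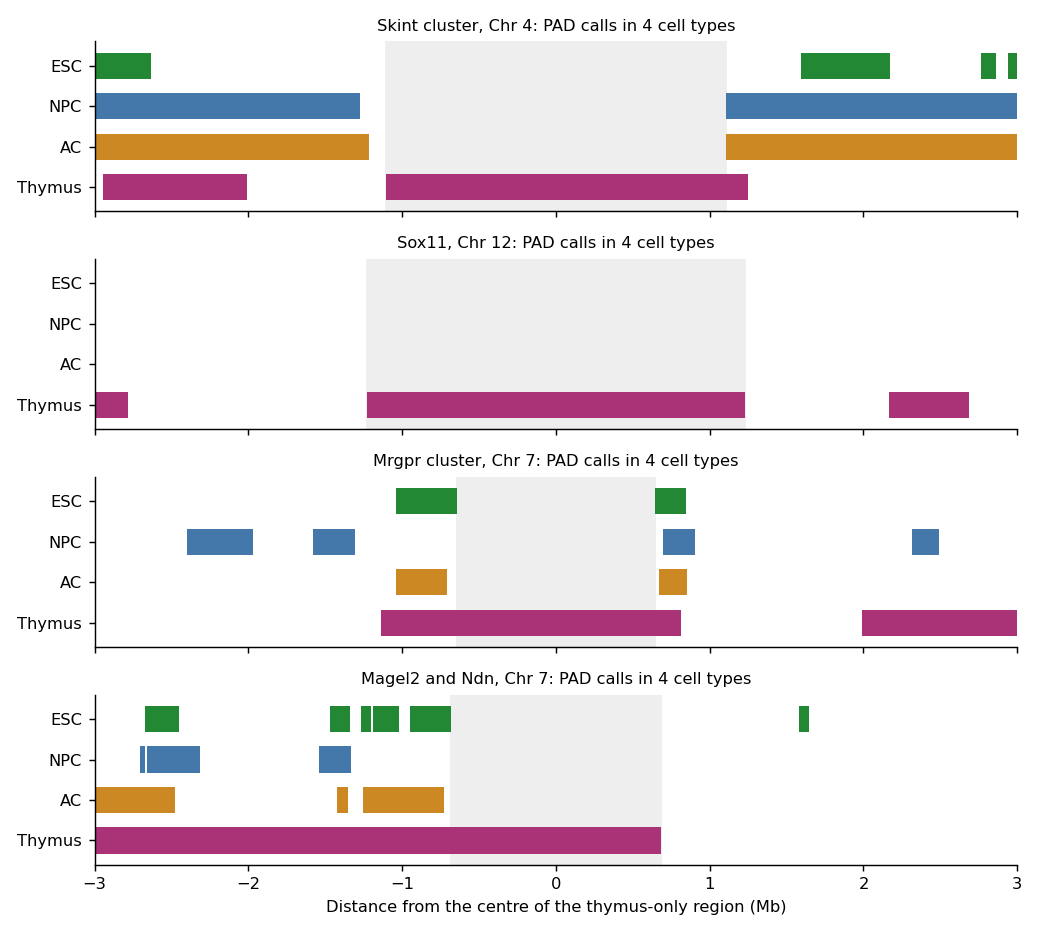
PAD calls (bars) in 4 cell types over 3 Mb on either side of the centre of 4 thymus-only regions, which are shaded (x axis, distance in Mb). The *Sox11* region stands alone, with no PAD of ESCs, NPCs or ACs in view. The *Mrgpr* region lies between ESC PADs, and the other regions adjoin shared PADs on 1 side.

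Promoters of member genes resembled those of other PADs in CpG content. In the 300 bases around each start site (250 before and 50 after, read from NCBIM37), the median was 4 CpG in thymus-only genes, 4 in genes of PADs in all 4 cell types, 15 in genes of shared non-PADs and 12 over the autosomes. At least 10 CpG stood in 36.1% of member promoters, against 35.1% in PADs of all 4 cell types, 61.7% in shared non-PADs and 55.9% over the autosomes. At most 1 CpG stood in 22.7% of member promoters, 29.8% of promoters in PADs of all 4 cell types and 5.70% in shared non-PADs. As examples, *Sox11* had 21 CpG (32.6% of all autosomal promoters had as many or more) and *Il17a* had 6 (36.5% had as few or fewer). Both stand above the member median of 4. With CG in capitals and each read 5′ to 3′ on the strand of its gene, *Sox11* at chr12:28027525-28027824 (minus strand) and *Il17a* at chr1:20720736-20721035 (plus strand) were as follows.
Sox11 promoter: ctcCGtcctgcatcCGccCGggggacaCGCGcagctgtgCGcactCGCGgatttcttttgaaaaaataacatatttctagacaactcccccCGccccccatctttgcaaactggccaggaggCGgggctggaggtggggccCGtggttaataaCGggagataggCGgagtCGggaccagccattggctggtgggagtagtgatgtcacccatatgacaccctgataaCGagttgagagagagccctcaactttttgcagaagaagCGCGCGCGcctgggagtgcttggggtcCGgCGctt
Il17a promoter: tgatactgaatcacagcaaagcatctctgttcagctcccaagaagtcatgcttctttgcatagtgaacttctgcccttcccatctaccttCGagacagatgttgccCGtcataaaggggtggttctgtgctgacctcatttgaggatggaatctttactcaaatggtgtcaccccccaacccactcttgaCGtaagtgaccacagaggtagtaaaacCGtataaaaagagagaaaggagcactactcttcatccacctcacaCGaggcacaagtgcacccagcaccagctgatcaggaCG
A count of CpG describes the letters of these windows, and methylation was not measured.

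Of 1468 annotated miRNA genes 67 (4.56%) had their midpoint in a thymus-only region, of which 7 matched RefSeq by symbol. The regions held 2.9% of protein-coding genes and 5.74% of the called autosomal sequence. The largest group, 11 genes, stood in the *Ndn* and *Magel2* region with *Mir344* and *Mir344c*. The *Il17a* region also held *Mir206* and *Mir133b*, miRNAs of skeletal muscle. Their mature sequences from RefSeq (GRCm38.p6) are given with the seed, bases 2 to 8, in capitals, and were chosen after the values were seen.
miR-206-3p: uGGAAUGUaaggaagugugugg
miR-133b-3p: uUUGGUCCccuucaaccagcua
miR-344-3p: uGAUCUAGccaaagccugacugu
miR-344c-3p: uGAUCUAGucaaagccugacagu
The *Mir344* products share a seed, and that of miR-206 differs from that of its neighbour miR-133b. Among the other large classes of gene, 199 of 4045 pseudogenes (4.92%), 55 of 1330 snRNA genes (4.14%), 48 of 1458 snoRNA genes (3.29%) and 32 of 1231 lincRNA genes (2.60%) were members. These shares, and that of the miRNA genes, lay below the 5.74% of sequence.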

How the data were processed

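The deposited file gives 1 consensus call (the word PAD or nPAD, no numeric unit of any other kind) for each of 399232 4C fragment ends in 4 cell types. Per the study's methods, the authors mapped reads to fragment ends of a reduced mm9 genome. They fitted a two-state hidden semi-Markov model to each replicate and combined replicates by majority vote. A tie was settled by a virtual replicate of pooled reads. With 2 replicates, any disagreement in NPCs or in ACs was a tie. No source used here names the aligner. A call therefore holds no read depth, and neither intervals nor replicate errors can be given.

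Regions were built with Python 3.11.15 (numpy 2.4.6, pandas 2.3.3). Fragment ends were merged as described, and the procedure was tested on simulated calls with planted regions. Genes are GENCODE vM1, placed by the midpoint of the longest transcript, and 21 of 21418 autosomal protein-coding genes lay outside the called sequence. GC and CpG were read from NCBIM37. Classes were set side by side with the SD over 19 autosomes and no test was made, since chromosomes, regions and genes are not replicates. The members and lists were chosen with earlier results of these data known. Named regions are the 12 largest, the 6 with most genes and those with a listed gene. Named genes are list members, the 12 longest, up to 6 genes per named region and up to 4 members of a family, and others are marked in the text. The genes named in a region were not always its longest (*Gata6*, *Btla*, *Ccni* and *Ccng2* were not), and all 8 member defensins were named. Chromosome X was left out. The alternatives tried were borders at the outer ends, short runs absorbed, single-end regions or wide gaps left out, NPC calls ignored, Chromosome X included, and other rules for placing genes.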

Additional observations from a re-analysis of the deposited data

How the results depend on the processing

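No paired analysis was possible because the file holds no call of a single replicate, and for the same reason no replicate could be left out. The alternatives are given as number of regions, sequence, median size, genes per Mb, GC content and fragment ends per Mb where a value moved from 418, 138.6 Mb, 186 kb, 4.47, 40.0% and 159.8. Borders at the outer fragment ends gave 135.9 Mb, 178 kb and 163.0 ends per Mb. Absorbing runs under 5 ends gave a median of 209 kb, and leaving out regions of 1 end gave 192 kb. Leaving out gaps over 100 kb gave 129.4 Mb, 184 kb, 3.99 genes per Mb, 39.8% GC and 171 ends per Mb. Ignoring the NPC calls gave 572 regions, 189.4 Mb, 188 kb and 40.3% GC. Including Chromosome X gave 463 regions, 146.4 Mb, 179.7 kb and 39.9% GC. Leaving out the 5 regions under 30 ends per Mb, chosen after seeing the data, gave 129.5 Mb, 184 kb, 4.05 genes per Mb, 39.8% GC, 169.8 ends per Mb and 525 genes in place of 620. Counting genes by any overlap gave 5.17 genes per Mb, and all gene types gave 1129 genes and 8.14 per Mb. By transcription start site 607 protein-coding genes were members. The share of sequence that extended or joined shared PADs was 85.1% and ran from 82.2% to 87.9%. The cause of these shifts was not tested, beyond what the construction of each alternative sets. Depth limits every call to an unknown degree, and a region of few fragment ends is the least resolved.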
